A study of Mus musculus with 8 samples.

Results

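The C-type lectin receptors of the NKG2, CD94 and NKR-P1 families were examined in NK cells of mouse spleen, separated by eGFP driven from Chat, the gene of the acetylcholine-making enzyme choline acetyltransferase. The set was 10 named genes (Klrb1c, Klrb1b, Klrb1f, Klrd1, Klrc1, Klrc2, Klrk1, Klre1, Klri1 and Klri2), found on the arrays through the RefSeq accession of each probe. Of these 10 genes, 9 had a named probe, 12 probes in all, among 20284 named genes. No probe was named for Klrc2, which encodes NKG2C, so it is not analysed here. All 12 probes were well above background on all 8 arrays, so each of the 9 genes was among the 13607 tested.

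RNA was measured on one-colour arrays in 4 ChAT_positive pools and 4 ChAT_negative pools. Per the series' design text, NK cells were isolated magnetically, sorted as ChAT+ or ChAT- by eGFP, and pooled from 2 to 4 mice a sample. Age, strain and treatment are not given in the sources used here, and neither is whether pools of a group shared mice, so p-values speak only of the spread among these pools, part of which may be technical. Values are log2 signal minus the array's 75th percentile (written log2 signal below), so 0 is that percentile and 1 unit is 2-fold. Chat itself had a log2 signal of 3.70, 4.10, 3.72 and 3.48 in the ChAT_positive pools, against 2.64, 3.12, 2.32 and 2.51 in the ChAT_negative pools. The reporter groups thus differed in the level of Chat signal, and both held it. All 13 tested NK cell markers were well above background on all 8 arrays, but so were 12 of 12 B cell, 12 of 12 NKT and ILC2/ILC3 and 11 of 13 T cell markers, so detection alone does not bear out the NK label. The arrays of each group lay on 1 slide, and 0 scans held both groups. An effect of slide or scan and one of the reporter group thus cannot be told apart in what follows.

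As background, these receptors are type II membrane proteins encoded in the NK gene complex on mouse chromosome 6. CD94 pairs with NKG2A to form an inhibitory receptor, and with NKG2C or NKG2E to form activating ones, for the non-classical MHC class I molecule encoded by H2-T23. NKG2D is an activating homodimer for stress-induced ligands of the Raet1, H60 and Ulbp1 families. Some NKR-P1 receptors bind Clr proteins, encoded by Clec2 genes of the same complex. NK1.1, the antigen most used to identify mouse NK cells in the strains that carry it, is the product of Klrb1c.

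The start regions of Klrb1c and Klrk1, which had the largest differences among the 9 tested receptor genes by their brightest probes, are shown as the RefSeq sequence on build GRCm38.p6, the 250 bases before each annotated start, on the gene's strand. Of the 10 genes, 8 had an entry (Klrb1c, Klrb1b, Klrb1f, Klrc1, Klrc2, Klrk1, Klre1 and Klri1). Capitals mark, on either strand, the ETS core AGGAAG and the RUNX core TGTGGT, motifs of transcription factor families used by lymphocytes. Klrb1c lies at chr6:128788642-128788891 (minus strand) and Klrk1 at chr6:129623865-129624114 (minus strand).
Klrb1c: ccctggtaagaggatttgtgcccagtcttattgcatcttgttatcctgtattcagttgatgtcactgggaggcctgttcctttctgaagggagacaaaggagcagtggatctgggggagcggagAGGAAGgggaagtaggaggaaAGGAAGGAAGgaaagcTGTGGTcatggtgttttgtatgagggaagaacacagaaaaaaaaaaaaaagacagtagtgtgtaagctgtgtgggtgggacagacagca
Klrk1: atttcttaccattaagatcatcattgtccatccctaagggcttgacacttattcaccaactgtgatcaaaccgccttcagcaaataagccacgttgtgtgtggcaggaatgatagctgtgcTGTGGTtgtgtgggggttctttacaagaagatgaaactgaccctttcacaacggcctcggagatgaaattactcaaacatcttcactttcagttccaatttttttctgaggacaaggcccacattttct

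In Klrb1c the RUNX letters began 89 bases before the start, next to 3 ETS matches, of which 2 overlap each other, and in Klrk1 they began 129 bases before it. RUNX letters stood in 5 of the 8 genes with an entry (by any of a gene's entries), against 14% of 32851 promoter windows of this length, and ETS letters in 4 of 8, against 29.5%. The T-box core TCACAC, also searched on both strands, stood in 1 of 8, against 12.3%. A match is a description of letters and not a binding site. Among the 28 pairs of these genes, the longest run in common was 22 bases, between Klrb1b and Klrb1f (AGTGTGGGCGGGTGTGGACACA). It started 58 bases before the Klrb1b start and 68 before the Klrb1f start. The next longest was 12 bases, between Klrc1 and Klrc2. Only exact runs in the first entry of each gene were compared, so likeness with gaps or mismatches was not measured.

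Transcripts of the family were lower in the ChAT_positive pools. The mean signal of all 9 genes was lower there, and all 9 had an unadjusted p under 0.05, where 1620 of the 13607 genes were lower at that level. Of the 9, 4 passed the test across all genes (limma, Benjamini-Hochberg adjusted p under 0.05): Klrb1c, Klrk1, Klri2 and Klri1. That is 44.4% of the 9, against a background of 3.15% of all genes called lower. No receptor gene was called higher by limma or had a higher mean, where 2.81% of all genes were called higher. The ChAT_positive pools all lay below the ChAT_negative pools for 5 genes, 55.6%, against 6.15% of all genes, and all above them for none, against 9.34%. The median log2 fold change (ChAT_positive minus ChAT_negative) was -0.89 over the 9 genes and 0.025 over all genes. Since members were chosen with earlier results of these data known, the counts describe this family and are no independent evidence about it. In pooled cells, fewer cells carrying a transcript and less of it per cell cannot be told apart.

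**Figure D1:**
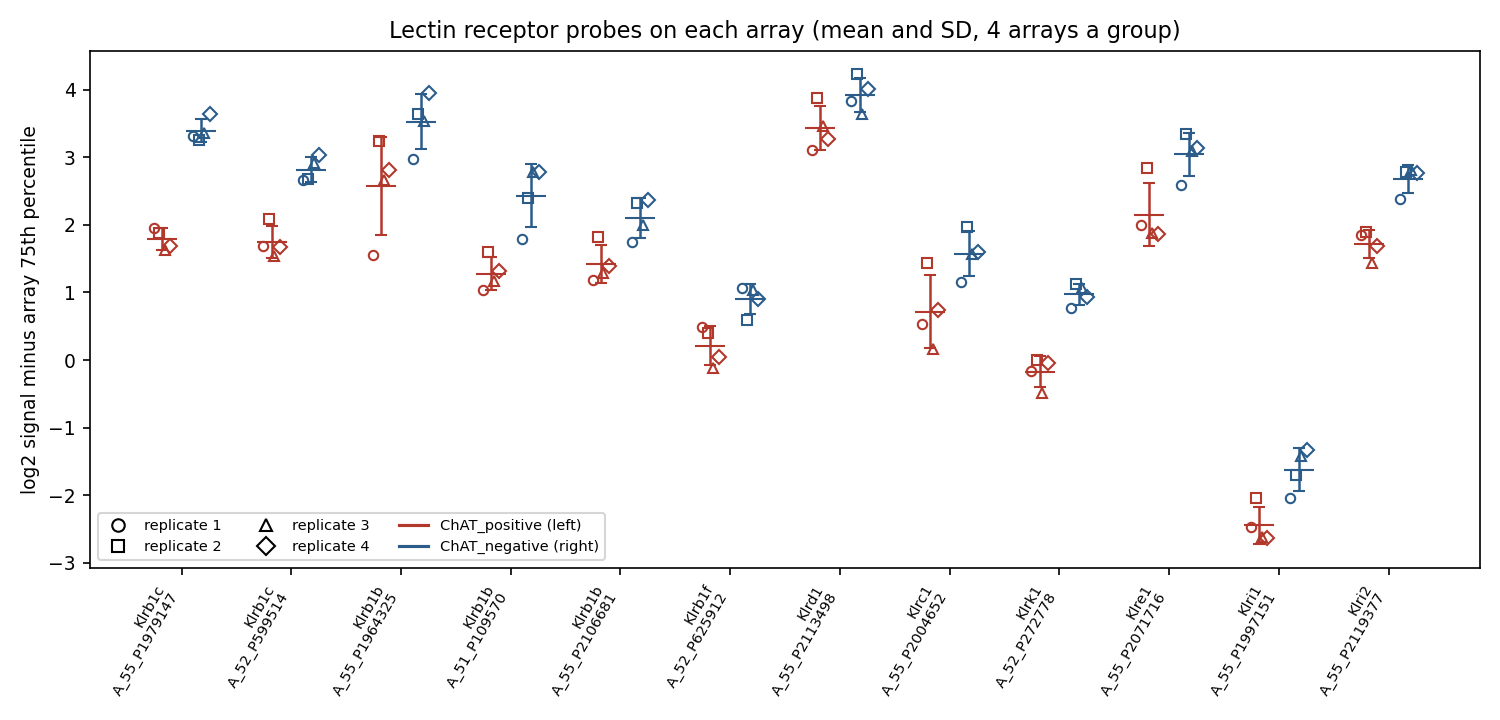
Log2 signal minus the array's 75th percentile for the 12 probes of 9 lectin receptor genes, with ChAT_positive arrays (red, left) and ChAT_negative arrays (blue, right), symbols for replicate numbers, and bars for mean and SD of 4 arrays. The groups separate for 7 of 12 probes, most widely for both Klrb1c probes and Klrk1, and overlap for Klrd1, Klrc1, Klre1 and 2 of 3 Klrb1b probes.

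Klrb1c, the activating receptor NKR-P1C, had the largest difference of the 9 genes by its brighter probe, though not by its other one. The brighter probe read 1.96, 1.89, 1.63 and 1.68 log2 signal in ChAT_positive pools 1 to 4, against 3.31, 3.25, 3.35 and 3.64 in ChAT_negative pools 1 to 4. Every ChAT_positive pool lay at least 1.30 below every ChAT_negative pool, several times the SD within either group (0.16 and 0.17). The log2 fold change was -1.60 (SE 0.13, limma adjusted p = 0.00103), which is 3.03-fold lower in ChAT_positive pools (95% interval 2.46 to 3.75). Of the 13607 genes, 128 had a more negative fold change and 10 a smaller p.

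The other Klrb1c probe gave the same direction with a smaller size, below that of Klrk1 and of a Klrb1b probe. It read 1.69, 2.09, 1.54 and 1.67 log2 signal in the ChAT_positive pools, against 2.66, 2.67, 2.91 and 3.03 in the ChAT_negative pools. Its groups did not overlap, and over all 32086 probes its log2 fold change was -1.07 (SE 0.16, limma adjusted p = 0.0192). The 2 probes differed in their change by -0.53, which had p = 0.0286 in a two-sided exact permutation test, the smallest that 4 against 4 arrays allow, and 0.0571 adjusted over the 4 probe pairs of this family. The 2 probes are annotated to different RefSeq transcripts of Klrb1c, and whether that bears on their difference was not tested. The fold change of this gene is thus given as a range between the probes, 2.10-fold to 3.03-fold lower.

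Klrb1b encodes NKR-P1B, the inhibitory receptor that recognises Clr-b, the product of Clec2d. Its 3 probes did not give 1 answer. The brightest, which stands for the gene, read 1.56, 3.25, 2.67 and 2.82 log2 signal in the ChAT_positive pools, against 2.97, 3.64, 3.53 and 3.94 in the ChAT_negative pools. Replicate 1 was the lowest of its group in both, the groups overlapped, and the log2 fold change of -0.95 (SE 0.35) was not called (limma adjusted p = 0.139). Without ChAT_positive replicate 1 it was -0.61 (limma adjusted p = 0.212). A second probe read 1.03, 1.60, 1.17 and 1.31 in the ChAT_positive pools, against 1.79, 2.39, 2.78 and 2.78 in the ChAT_negative pools. Its groups did not overlap, and it was called in the fit over all probes at -1.15 (SE 0.24, limma adjusted p = 0.044). The last probe had means of 1.42 ± 0.28 and 2.11 ± 0.29 (ChAT_positive and ChAT_negative, SD, n = 4 each) and was not called at -0.69 (limma adjusted p = 0.0918). All 3 probes carry the same accession, and the differences in change between them had exact permutation p from 0.0571 to 0.514 after adjustment over the 4 probe pairs.

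Klrb1f encodes NKR-P1F, an activating receptor for Clr proteins. It read 0.50, 0.41, -0.11 and 0.051 log2 signal in the ChAT_positive pools, against 1.06, 0.59, 1.04 and 0.91 in the ChAT_negative pools. The groups stood apart by 0.095, less than their SDs of 0.29 and 0.22. Its log2 fold change was -0.69 (SE 0.18), which was not called (limma adjusted p = 0.0529).

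Among the receptors for MHC class I molecules, neither CD94 nor NKG2A was called in the main fit. With same-numbered arrays as blocks both were (limma adjusted p = 0.04995 for CD94 and 0.0151 for NKG2A). Klrd1, which encodes CD94, the chain shared by the NKG2A, NKG2C and NKG2E receptors, read 3.11, 3.87, 3.46 and 3.27 log2 signal in the ChAT_positive pools, against 3.83, 4.23, 3.64 and 4.01 in the ChAT_negative pools. The groups overlapped, and its log2 fold change was the smallest of the 9 genes, at -0.49 (SE 0.19, 95% interval -0.93 to -0.057), and was not called (limma adjusted p = 0.157). Klrc1, which encodes the inhibitory chain NKG2A, read 0.53, 1.44, 0.16 and 0.74 in the ChAT_positive pools, against 1.15, 1.97, 1.57 and 1.59 in the ChAT_negative pools. In both groups replicate 2 was the highest, and the ChAT_positive one lay within the ChAT_negative range. The log2 fold change was -0.86 (SE 0.28, limma adjusted p = 0.101). Without ChAT_positive replicate 2 it was -1.10 and called (limma adjusted p = 0.0325), the only call among 8 fits that each left out 1 array, whose values reached up to -0.67 (0.236). Klrc1, Klrc2 and Klrc3 are close paralogs, so a probe of one may take up signal of another.

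Klrk1 encodes NKG2D, the activating receptor that signals through the adaptors encoded by Hcst and Tyrobp. It read -0.16, 0.0087, -0.49 and -0.036 log2 signal in the ChAT_positive pools, against 0.77, 1.12, 1.06 and 0.93 in the ChAT_negative pools. Every ChAT_positive pool lay at least 0.77 below every ChAT_negative pool, where the SDs were 0.23 and 0.15. The log2 fold change was -1.14 (SE 0.15, limma adjusted p = 0.00647), or 2.21-fold lower in ChAT_positive pools (95% interval 1.75 to 2.78).

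Klre1, Klri1 and Klri2 encode lectin receptors of which, in rat, KLRE1 pairs with KLRI1 or KLRI2 at the cell surface, as an inhibitory receptor with KLRI1 and an activating one with KLRI2. Klri2 read 1.85, 1.89, 1.44 and 1.69 log2 signal in the ChAT_positive pools, against 2.38, 2.78, 2.81 and 2.76 in the ChAT_negative pools. The groups stood 0.49 apart, and the gene fell by 0.96 on the log2 scale (SE 0.15, limma adjusted p = 0.0122), with a 95% interval from 1.54-fold to 2.47-fold lower.

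Klri1 was called by a small margin. It read -2.47, -2.04, -2.62 and -2.64 log2 signal in the ChAT_positive pools, against -2.03, -1.70, -1.42 and -1.32 in the ChAT_negative pools. The groups stood apart by 0.0096 only, and the log2 fold change of -0.83 (SE 0.20) had a limma adjusted p of 0.0443 over genes and 0.0649 over probes. Klre1 read 2.00, 2.84, 1.88 and 1.87 in the ChAT_positive pools, against 2.59, 3.34, 3.10 and 3.14 in the ChAT_negative pools. ChAT_positive replicate 2 alone reached into the ChAT_negative range, and the log2 fold change of -0.89 (SE 0.25) was not called (limma adjusted p = 0.0685). Without that array it was -1.12 and called (limma adjusted p = 0.0198), also the only call among the 8 fits, whose values reached up to -0.79.

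**Figure D2:**
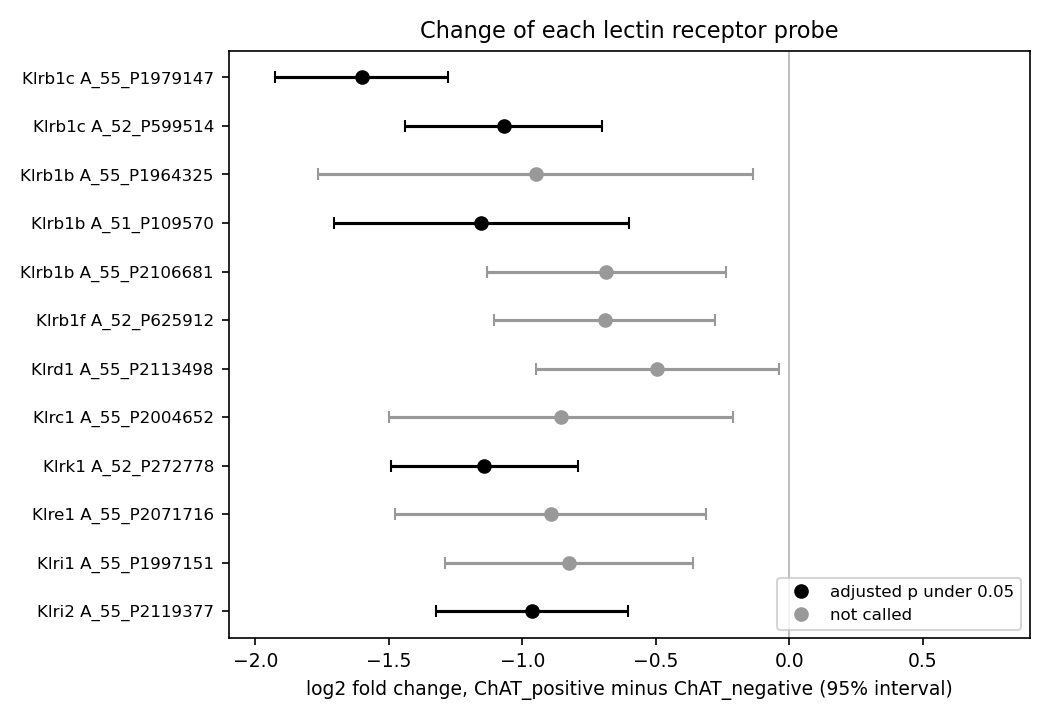
Log2 fold change (ChAT_positive minus ChAT_negative) of the 12 probes with 95% intervals from the fit over all 32086 probes, black where the adjusted p was under 0.05. All 12 values lie below 0, from -1.60 for a Klrb1c probe to -0.49 for Klrd1, and 5 were called.

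Taken probe by probe, all 12 had lower means in the ChAT_positive pools, and 5 were called lower in the fit over all probes, where 1.64% of probes were. No probe was called higher by limma or had a higher mean, where 1.46% of probes were called higher, and 7 had groups that did not overlap, where 6.46% of probes did. Whether the genes differed by unequal amounts depended on the Klrb1c probe. With the brighter probe, the change of Klrb1c minus that of another gene, computed within each array, was -1.11 for Klrd1, -0.91 for Klrb1f, -0.78 for Klri1, -0.64 for Klri2 and -0.46 for Klrk1, each with an adjusted p of 0.0457 (two-sided exact permutation tests, adjusted over 8 genes). For Klrc1 it was -0.75 (adjusted p = 0.098), for Klre1 -0.71 (0.0762) and for Klrb1b -0.65 (0.171), so for these a difference in change from Klrb1c was not shown. With the dimmer Klrb1c probe, an alternative chosen after seeing the data, 0 of the 8 differences were called (adjusted p of 0.229 or more). That difference was 0.072 for Klrk1, of opposite sign, and -0.58 for Klrd1, and 1 gene, Klri1, had an unadjusted p under 0.05. The tests with the brighter probe called 0 genes when ChAT_positive replicate 2, 3 or 4 or ChAT_negative replicate 1, 3 or 4 was left out, and 0 under quantile normalization. At the smallest p that these exact permutation tests allow, 0.0286, adjustment over 8 genes calls either none or at least 5. A count of 0 thus does not show that each of the 5 differences was lost.

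The arrays differed in how the receptors stood within a group. ChAT_positive replicate 2 was the highest of its group for 7 of 9 genes, and replicate 3 the lowest for 5 of 9. In the other group ChAT_negative replicate 1 was the lowest for 6 of 9 genes. Between 50.2% and 63.2% of spots per array were well above background, with the least on ChAT_positive replicate 3 and the highest on ChAT_negative replicate 3.

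The calls of 2 genes held under all 19 other ways of processing the arrays or leaving 1 out. Klrb1c was called in 19 of 19 (limma adjusted p from 2.83e-05 to 0.00814) and Klrk1 in 19 of 19 (0.00144 to 0.035). Klri2 was called in 18, with an adjusted p of 0.0813 when arrays were scaled to their median. Klri1 was called in 9, and kept its call in only 2 of the 8 fits that left out 1 array, those without ChAT_positive replicate 2 or ChAT_negative replicate 1 (limma adjusted p up to 0.126 in the others). The fold changes of all 9 genes stayed below 0 in all 19. With same-numbered arrays as blocks all 9 were called, among them Klrb1b (limma adjusted p = 0.0131), Klrb1f (0.032) and Klre1 (0.0137). The labels do not say whether same-numbered pools were pairs. Without both arrays numbered 3, an alternative chosen after seeing the data, Klrb1c alone of the 9 was called (log2 fold change -1.56, limma adjusted p = 0.0247), and Klrk1 had -1.01 (0.0554).

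**Figure D3:**
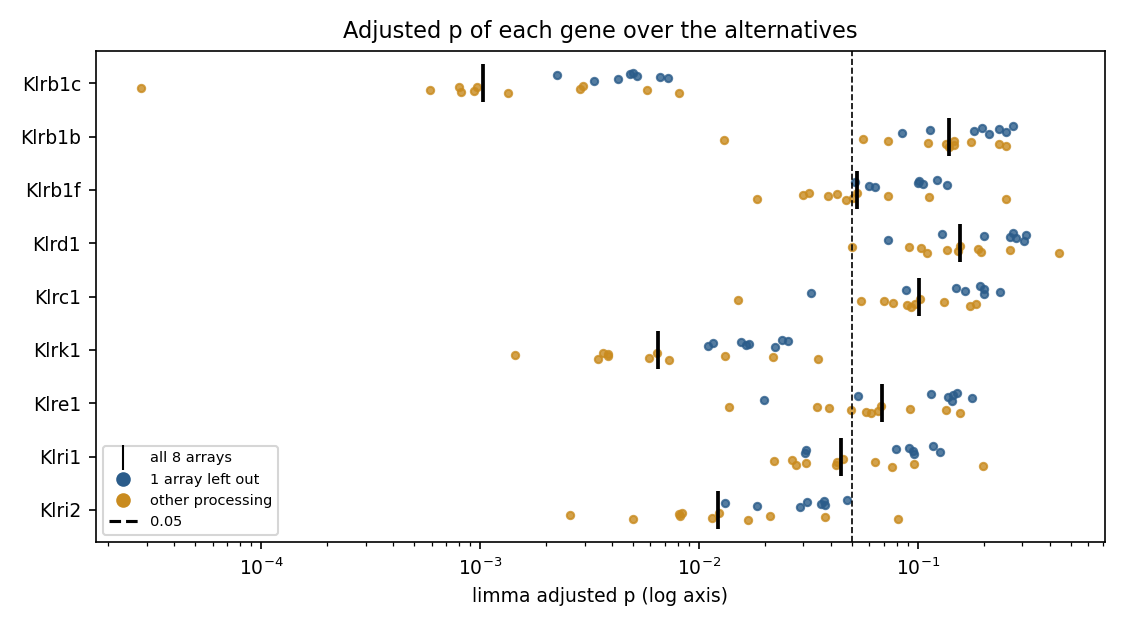
Limma adjusted p of the 9 genes on a log axis, with all 8 arrays (black bar), with 1 array left out (blue) and under other processing (orange), and a dashed line at 0.05. Klrb1c and Klrk1 lie left of the line throughout, Klri2 crosses it once, and the other 6 genes have points on both sides, Klrd1 with 1 point just under 0.05.

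The receptors stand in a row of related genes, and some of the neighbours also differed. From Klrb1a to Klra2, 29 genes in the order of the RefSeq table were tested, and 20 of them are not among the receptors above. Of those 20, 9 were called lower by limma and none higher (14 and 0 at an unadjusted p under 0.05), with 18 means below 0 and a median log2 fold change of -0.69. Clec9a and Klra17 were well above background on no ChAT_positive array, so the filter let them in only through the ChAT_negative arrays and their direction was set by it. Without both, 7 of 18 were called lower, with a median of -0.59, against 2.9% of all genes that were well above background on an array of each group. Leaving out also the Ly49 genes (Klra), a receptor family for classical MHC class I molecules, 4 of 9 were called lower, with a median of -0.20. These 4 were Klrb1a, Klrb1 and Klrc3, which are NKR-P1 and NKG2 genes outside the set named above, and Clec1b. The Clec2 genes, Cd69 and Gabarapl1 were not called. Apart from Clec1b, the neighbours well above background in both groups that passed the test were thus NKR-P1, NKG2 and Ly49 genes.

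**Figure D4:**
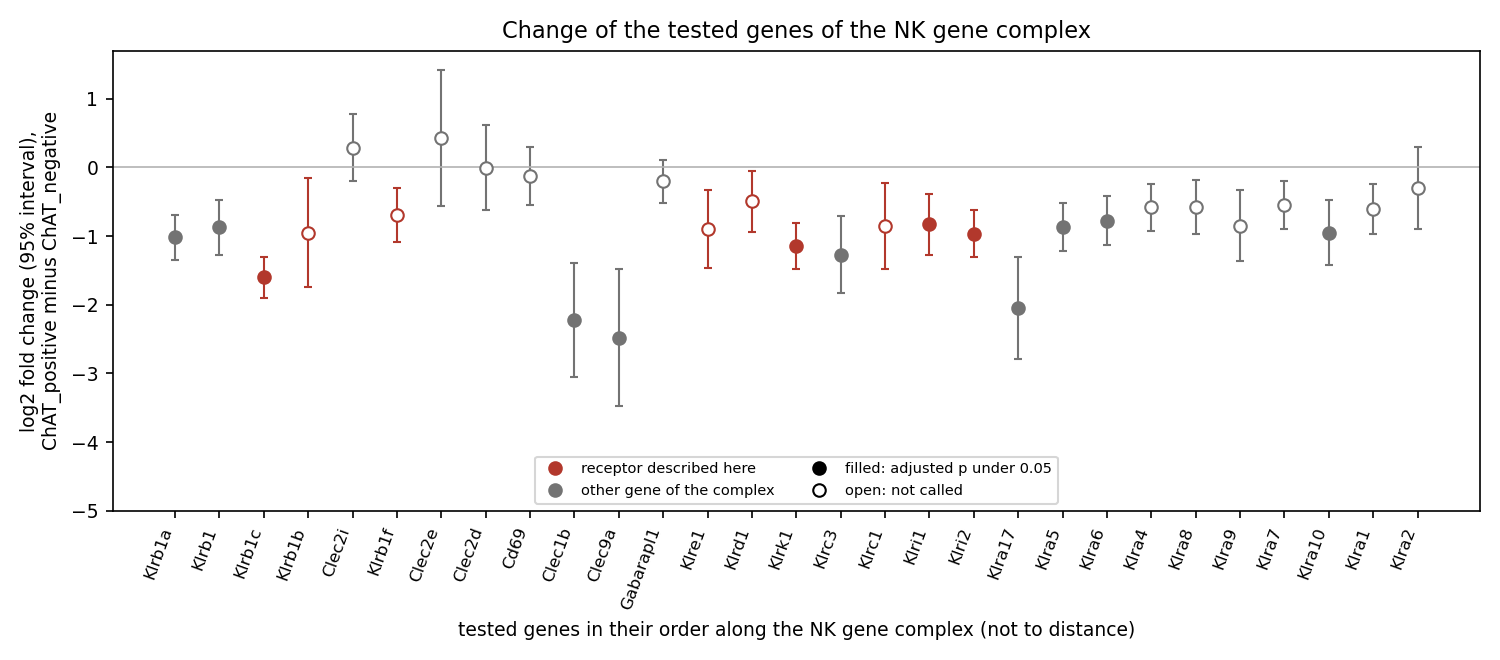
Log2 fold change with 95% interval for the 29 tested genes from Klrb1a to Klra2 in their order along the complex, with receptors described here in red, other genes in grey, and filled points for adjusted p under 0.05. Called genes stand in several stretches of the row, with none from Klrb1b to Cd69, where the intervals of the Clec2 genes and Cd69 include 0. Clec9a and Klra17 were not well above background on the ChAT_positive arrays, so their points are not sizes.

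Among other lectin genes of the complex, 5 of 11 tested were called lower by limma and none higher (6 and 0 at an unadjusted p under 0.05), or 4 of 10 without Clec9a. Over all genes 3.15% were called lower, or 2.9% of those well above background in both groups. Klrb1a, an activating NKR-P1 receptor, had a log2 fold change of -1.02 (limma adjusted p = 0.0088), Klrb1 one of -0.87 (0.0287), and Klrc3, which encodes NKG2E, one of -1.27 (0.0249). Clec1b, a platelet receptor, had -2.22 (0.0155). Clec9a, a dendritic cell receptor, was well above background on every ChAT_negative array and on no ChAT_positive array. It entered the test only through the ChAT_negative arrays, so its call is no separate result and no size is given. Cd69, an activation marker, had -0.13 (0.715). Close paralogs in the Klrb1 group may share probe signal.

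Of 17 listed genes that encode ligands of these receptors, 10 had a named probe and 7 were tested. No probe was named for Raet1a to Raet1d, H60a, H2-T22 and Clec2f. Of the 7 tested, 0 were called lower by limma (also 0 without adjustment, at p under 0.05), where 3.15% of all genes were. Called higher was 1, where 2.81% of all genes were. It was Raet1e, an NKG2D ligand, at 0.78 (limma adjusted p = 0.0343), with mean log2 signals of -2.73 in the ChAT_positive and -3.51 in the ChAT_negative pools. The median over the list was 0.006. H2-T23, the CD94 ligand gene, had a log2 fold change of -0.22 (limma adjusted p = 0.433), Clec2d one of -0.0034 (0.995) and Clec2i, which encodes Clr-g, one of 0.29 (0.449).

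Of 23 tested adaptor and proximal signalling genes, 1 was called lower by limma and none higher (8 and 1 at an unadjusted p under 0.05), a share near the 3.15% of all genes, with a median log2 fold change of -0.11. Fcer1g, the adaptor of NKR-P1C, fell by 0.57 (limma adjusted p = 0.0458). Tyrobp, which encodes DAP12, had -0.69 (0.0654) and Hcst, which encodes DAP10, -0.49 (0.115). Ptpn6, the phosphatase SHP-1 used by inhibitory receptors, had 0.23 (0.383).

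Markers of NK and some other cell types also differed between the groups, some lists lower and others higher in the ChAT_positive pools. Their part in the result was not tested. Over all genes, 3.15% were called lower and 2.81% higher, with a median log2 fold change of 0.025. Of 13 tested NK cell markers, 3 were called lower (Sh2d1b1, Cd7 and Prf1) by limma and none higher (10 and 0 at an unadjusted p under 0.05), with a median log2 fold change of -0.56. The summed linear signal of that list, relative to the array's 75th percentile, was 163 to 239 in the ChAT_positive pools, against 242 to 287 in the ChAT_negative pools. Of 12 B cell markers 6 were called higher and none lower, led by Pax5 (1.31, limma adjusted p = 0.0039), Bank1 and Ebf1. The median was 0.74, and the sums were 105 to 137 in the ChAT_positive pools, against 71.5 to 91.5 in the ChAT_negative pools. Of 12 NKT and ILC2/ILC3 markers 4 were called higher (among them Il17a, Il17rb and Il1r1) and none lower, with a median of 0.48. The sums were 39.2 to 53.5 in the ChAT_positive pools, against 37.6 to 49.4 in the ChAT_negative pools.

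Of 13 T cell markers none was called by limma (2 lower and 1 higher at an unadjusted p under 0.05), with a median log2 fold change of -0.068. The sums were 20.1 to 35.0 in the ChAT_positive pools, against 21.3 to 32.4 in the ChAT_negative pools. Basophil and mast cell markers were called lower for 5 of 7 tested, with a median of -4.04. Without Cd200r3, which was well above background on no ChAT_positive array, it was 4 of 6, with a median of -3.24. The log2 fold changes of those 4 ran from -2.41 for Hdc, the histamine-making enzyme, to -4.95 for Prss34, a protease. Prss34 and Fcer1a were well above background on only 3 of 4 ChAT_positive arrays (SDs there 1.95 and 2.03), so their sizes are uncertain. The sums of the list were 0.89 to 3.79 in the ChAT_positive pools, against 9.11 to 43.3 in the ChAT_negative pools. Called lower were also 2 of 9 neutrophil (1 of 8 without Retnlg, likewise well above background on no ChAT_positive array), 3 of 5 erythroid and 2 of 8 platelet markers. Their sums in the ChAT_positive pools were 3.07 to 35.4, 15.1 to 16.5 and 3.04 to 8.10, against 20.5 to 60.5, 23.2 to 32.8 and 7.42 to 22.5 in the ChAT_negative pools. Elane, Ms4a2, Alas2 and Slc4a1 were below background on 5 or more arrays and were not tested.

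The genes nearest to Klrb1c in their pattern over the 8 arrays were not lectin receptors. The measure was the root mean square difference of log2 values from the brighter Klrb1c probe, each gene centred on its own mean. With provisional gene names left out, the nearest 5 were Wdr95 (0.12), Camk2n1 (0.15), Tmprss6 (0.19), Itgax (0.19) and Ncald (0.20). Itgax encodes CD11c, an integrin chain carried by dendritic cells and also by mouse NK cells, and Camk2n1 an inhibitor of a calmodulin-dependent kinase. Itgax read 0.34, 0.42, -0.18 and -0.11 log2 signal in the ChAT_positive pools, against 1.37, 1.41, 1.29 and 1.62 in the ChAT_negative pools. The nearest of the other receptors was Klrk1, at 0.30, with 30 genes, provisional names counted, nearer to Klrb1c than it was. The farthest were Klrb1b at 0.62 and Klrd1 at 0.63. This likeness is a description of 8 arrays that fall into 2 groups.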

How the data were processed

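RNA of 8 pools was hybridised to one-colour (Cy3) arrays. Per the labels' protocols, the input was 100 ng of total RNA, amplified with T7 polymerase. The deposited intensity values come, per the file headers, from Agilent Feature Extraction 11.5.1.1, which subtracts background within each array. The authors' deposited table of log2 values, for 31942 probes, followed log2 of the processed intensity less 1 value per array near its 75th percentile (largest gap -0.0065), with column medians from -0.72 to -0.63. The sources used here do not give how its probes were chosen. Per the file headers, the deposited flags (other values, 0 or 1) mark spots well above background, saturated or outlying.

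Here control spots and 1344 flagged spot values were left out, except 51 probe values with all spots flagged. Spots were averaged over 55681 probes, of which 26762 were named by 1 symbol through an unversioned RefSeq accession (GRCm38.p6 table). Probe positions are not given, since the array was annotated on an earlier assembly, and promoter positions and gene order are those of RefSeq. Main values were log2 intensity minus the array's 75th percentile. Kept were 32086 probes that at least 4 of 8 arrays showed well above background, and the brightest stood for its gene (13607 genes). No spot was saturated (0 in all), and the number of arrays limits precision.

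The groups were compared by limma 3.58.1 in R 4.3.3 (lmFit, eBayes, ChAT_positive minus ChAT_negative, two-sided, Benjamini-Hochberg, adjusted p under 0.05), over genes and again over probes, unblocked. The fit was first tested on simulated data. Alternatives changed scaling, background correction, filter, variance model, array weights, probe choice, threshold and block, took the deposited table, or left out an array. Normexp used the median spot signal, as no mean signal column was used. Named genes were all receptor genes, Chat, called genes of fixed lists (up to 6, or up to 3 for cell type markers, or else the brightest), and the 5 genes nearest to Klrb1c. Provisional gene names were left out of these 5. A few further list genes were chosen after their values were seen. The members and lists were chosen with earlier results of these data known.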

Additional observations from a re-analysis of the deposited data

Results flagged for a closer look

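Of the 24 sets of 4 arrays checked (12 probes in 2 groups), 2 held an array that stood far from the other 3, judged by its gap as a share of the group's range, and chance gives about 1 in 20. Klre1 had a log2 signal of 2.84 in ChAT_positive replicate 2, where the other 3 ChAT_positive arrays read 1.87 to 2.00. Klri2 had 2.38 in ChAT_negative replicate 1, where the other 3 ChAT_negative arrays read 2.76 to 2.81.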

How the results depend on the processing

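Of the 9 genes, 4 were called lower with all arrays, 3 to 6 with 1 array left out, 2 under median scaling, 2 when a change of at least 2-fold was also required, 9 with the replicate block and 1 without both arrays numbered 3. Of the 12 probes, 5 were called lower, 2 to 5 with 1 array left out, 2 under median scaling, 2 with no filter on dim probes, 9 at an adjusted p under 0.1, 10 with the replicate block and 1 without both arrays numbered 3. No receptor gene or probe was called higher under any setting. Median scaling moved the median log2 fold change of all genes to 0.24. The 5 genes whose change differed from that of Klrb1c numbered 0 to 6 with 1 array left out, 0 under quantile normalization and 0 with the dimmer Klrb1c probe. Those tests could call only 0 or at least 5. The 7 called genes of the 3 pathway lists numbered 2 to 9 with 1 array left out, 3 under median scaling, 2 with no filter and 0 without both arrays numbered 3. The cause of these shifts was not tested, except that fits without arrays hold fewer samples. Same-numbered arrays deviated together at r = 0.54, 0.66, 0.52 and 0.032 across genes, and the other pairings gave from -0.55 to 0.40. The labels do not say whether same-numbered pools were pairs, so the main fit did not take them as such. With the replicate block 2346 genes were called, against 810 without. A slide or scan block could not be fitted, because 0 slides held both groups.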
